A study of Mus musculus with 6 samples.

Results

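The genes described are 10 components of the cellular response to low oxygen, taken by symbol from a table of 57508 genes. They are the HIF subunit genes Hif1a, Epas1 and Arnt, the prolyl hydroxylase genes Egln1, Egln2 and Egln3, the von Hippel-Lindau gene Vhl, the histone demethylase gene Kdm3a, and the mitophagy receptor genes Bnip3 and Bnip3l. All 10 symbols were found once each and all 10 passed the filter on low counts. The list was selected on the log2 fold changes and adjusted p-values of knockdown against WT in these same libraries, which were known when the names were written down, so the differences between the groups are a description and no independent evidence. RNA was sequenced from KPC1199, a line of mouse pancreatic tumour cells by its labels, in 3 libraries of genotype WT and 3 of genotype ACSL5 knockdown. The WT libraries carry the name siACSL5_CY3 and the knockdown libraries siACSL5_2260, and the labels explain neither ending nor what the WT cells received. The knockdown titles say KO where the genotype field says knockdown. The series design asks what ACSL5 does in the progression of pancreatic ductal adenocarcinoma. Whether the 3 libraries of a group are separate cultures is not stated, and p-values then rest on a library-to-library spread that may be technical. All 10 genes are protein-coding, and positions are those of the mouse build GRCm38. Values by library are given in the order of replicates 1, 2 and 3.

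Hypoxia-inducible factors are pairs of an oxygen-regulated alpha subunit, HIF-1 alpha from Hif1a or HIF-2 alpha from Epas1, and the stable partner encoded by Arnt. When oxygen is present, EGLN enzymes hydroxylate prolines of the alpha subunits, and the VHL protein then directs them to the proteasome, so that much of the control lies on the protein and not on the RNA. When the alpha subunits accumulate they switch on glycolytic, angiogenic and mitophagy genes, and several of the genes described here, among them Egln1, Egln3, Kdm3a and Bnip3, are known targets as well as components of the response.

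Acsl5, the targeted gene, stood at 342.4, 265.2 and 270.2 CPM (counts relative to library size, scaled by TMM, a correction for library composition) in WT and at 49.8, 55.6 and 57.2 CPM in the knockdown libraries. WT replicate 1 was unlike the remaining 5 libraries. The Pearson correlation of its log2 CPM with theirs, across genes that are not independent replicates, was 0.902 to 0.921, against 0.972 to 0.992 among the others. The share of counts on ribosomal protein genes was 9.46% in it and 3.61% to 4.26% elsewhere. Its log2 CPM minus the mean of the others had a median of 1.17 over the shortest 10% of genes and -0.99 over the longest 10%. Library totals ranged from 21794244 to 29996194 expected counts. Each difference of the 10 genes is therefore given below over the 6 libraries and over 5, without WT replicate 1. For other genes the difference is given over the 5 libraries, and over the 6 only where stated.

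WT replicate 1 differed by unlike amounts over the 10 genes. Relative to the mean log2 CPM of the other 5 libraries it was at -1.0 for Hif1a, -0.92 for Kdm3a, -0.71 for Arnt and -0.14 for Epas1. It was at 1.27 for Vhl, 1.11 for Bnip3, 0.81 for Egln1, 0.36 for Egln3, 0.25 for Bnip3l and 0.10 for Egln2. Hif1a and Kdm3a have long deposited lengths (4724 and 4753 bases) and Bnip3 a short one (1756). By this measure Epas1 with the longest (5516) deviated little and Vhl (2792) the most, but the 5 libraries include the knockdown libraries. Of the mean CPM of WT replicates 2 and 3 alone, WT replicate 1 held 68.8% for Epas1, 45.9% for Hif1a, 55.2% for Arnt and 60.1% for Kdm3a. It held 182.0% for Vhl, 166.3% for Bnip3, 153.2% for Egln1, 144.0% for Egln2, 126.3% for Egln3 and 105.7% for Bnip3l. Removing each library's trend with length, over the 6 libraries, lowered the SE of the log2 fold change from 0.318 to 0.168 for Hif1a, from 0.225 to 0.0910 for Kdm3a and from 0.237 to 0.104 for Bnip3. It also lowered the SE for Egln2 (0.183 to 0.075), Epas1 (0.184 to 0.103), Egln3 (0.169 to 0.122) and Bnip3l (0.122 to 0.0988). The SE stayed close for Vhl (0.271 and 0.262) and Arnt (0.249 and 0.234) and rose for Egln1 (0.205 and 0.256).

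Without WT replicate 1, 7 of the 10 genes were lower in knockdown cells (Hif1a, Epas1, Arnt, Egln1, Vhl, Bnip3 and Bnip3l), 2 were higher (Egln2 and Kdm3a), and Egln3 was not called. In that comparison edgeR called 34.3% of all 15152 tested genes at an adjusted p below 0.05, 16.3% higher and 18.0% lower, and nothing is read from the count of 9 among the 10. With the GC trend of each library removed it called 8 of the 10 (all but Hif1a and Egln3) and 31.4% of all genes. Before that removal the median log2 fold change of the 10 was -0.28, against -0.01 over all tested genes, and none differed by 1 log2 unit. Over the 6 libraries edgeR called 0 of the 10 genes and 0.0% of 14679, while 6 of the 10 had an unadjusted p below 0.05, against 16.0% of all genes. There the median was -0.23, against -0.02 over all tested genes. DESeq2 called 3 of the 10 over the 6 libraries, all lower (Vhl, Bnip3 and Bnip3l), where it called 7.68% of all genes, and limma-voom called 0. Over the same libraries edgeR with the length trend removed called Epas1 and Bnip3 lower and Egln2 higher (5.99% of all genes), and with the length and GC trends removed it called Epas1 and Bnip3 lower and Kdm3a higher (3.94%). On the CPM scale the 3 knockdown libraries lay wholly below the 3 WT libraries for 5 genes (Epas1, Egln1, Vhl, Bnip3 and Bnip3l) and wholly above for 2 (Egln2 and Kdm3a). The groups did not overlap in 34.3% of all genes tested over the 6 libraries, 15.6% with knockdown lower and 18.7% with knockdown higher. By deposited TPM (abundance per transcript length, scaled to the same sum in every library) 2 of the 10 were wholly below (Egln1 and Vhl) and 2 wholly above, where 31.3% of all genes did not overlap, 5.61% lower and 25.6% higher. Without WT replicate 1 the groups were apart for 9 of the 10 on both scales, 7 lower and 2 higher, against 59.7% of all genes by CPM (29.3% lower, 30.4% higher) and 52.6% by TPM (23.4% lower, 29.3% higher).

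**Figure D1:**
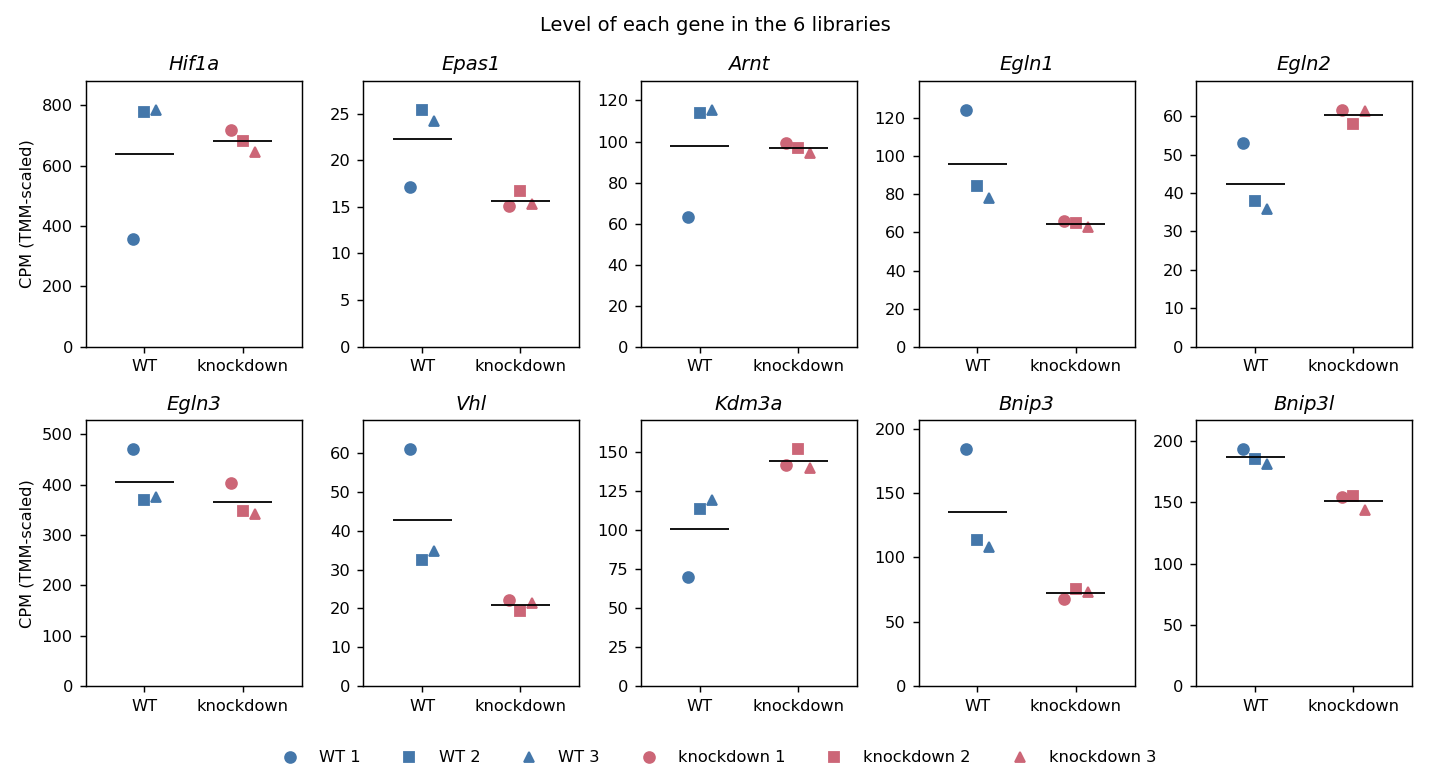
Level of the 10 genes in CPM (TMM-scaled, axes from 0) in each library, with a line at the mean of each group of 3. WT replicate 1 (blue circle) lies far from the other 2 WT libraries for Hif1a, Arnt, Vhl, Kdm3a and Bnip3, and the knockdown libraries lie close together.

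Of the HIF subunit genes, Epas1 had the largest difference without WT replicate 1. Epas1 (ENSMUSG00000024140, chromosome 17, 86753700 to 86833410, plus strand) stood at 17.1, 25.4 and 24.3 CPM in WT and at 15.1, 16.7 and 15.3 CPM in knockdown libraries. Every knockdown library was below every WT library, and WT replicate 1 was 0.42 CPM above the highest knockdown library. WT averaged 22.3 ± 4.51 CPM (SD, n = 3), and knockdown cells averaged 15.7 ± 0.867 CPM (SD, n = 3). The log2 fold change was -0.51 (SE 0.184, adjusted p = 0.269 in edgeR) over the 6 libraries and -0.68 (SE 0.0903, adjusted p = 3.04e-04) without WT replicate 1, where knockdown cells held 63.1% of the WT level. By TPM, WT replicate 1 had the lowest value of all 6 libraries (2.50, against 4.04 to 4.64 in knockdown), so the groups overlapped on that scale. There log2(TPM + 1) gave -0.17 over the 6 libraries.

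Hif1a, the alpha subunit gene with the higher TPM, differed less. Hif1a (ENSMUSG00000021109, chromosome 12, 73901375 to 73947530, plus strand) stood at 358.5, 776.0 and 785.8 CPM in WT and at 718.0, 680.0 and 643.7 CPM in the knockdown libraries. WT replicate 1 was at 45.9% of the mean of the other 2 WT libraries, while all knockdown libraries lay between it and them. For Hif1a the fitted log2 fold change was 0.09 (SE 0.318, adjusted p = 0.897 in edgeR) over the 6 libraries and -0.21 (SE 0.0474, adjusted p = 0.00553) without WT replicate 1. This call was lost when the GC trend was removed (-0.07, adjusted p = 0.255) or the length and GC trends together (-0.05, adjusted p = 0.304). It was also lost without WT replicate 2 as well (-0.23, adjusted p = 0.0555) or WT replicate 3 as well (-0.21, adjusted p = 0.0798), where the difference itself was as large. Hif1a overlaps 2 annotated genes, the antisense Gm15283, with 2.0 to 25.1 counts per library, and Gm49321 on the same strand, which is not among the genes quantified. Whether the counting used strand is not given in the sources used here.

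Arnt encodes the partner that both alpha subunits need. Arnt (ENSMUSG00000015522, chromosome 3, 95434388 to 95497240, plus strand) stood at 63.3, 114.0 and 115.6 CPM in WT and at 99.3, 96.7 and 94.4 CPM in knockdown libraries. The knockdown libraries again lay between WT replicate 1 and the other WT libraries. Knockdown against WT, Arnt differed by -0.01 on the log2 scale (SE 0.249, adjusted p = 0.982 in edgeR) over the 6 libraries and -0.26 (SE 0.0477, adjusted p = 0.00191) when WT replicate 1 was left out, and it lost its call with log2(TPM + 1) (-0.12, adjusted p = 0.386). Removing the GC trend left Arnt at -0.25 (adjusted p = 0.00294).

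Within each library, where scaling between libraries cancels, the TPM of Hif1a was 26.6, 38.5 and 40.45 times that of Epas1 in WT. The ratio was 57.7, 51.0 and 52.8 in the knockdown libraries. All 3 knockdown values exceeded all 3 WT values, with or without WT replicate 1, so transcripts of the alpha subunits were more weighted towards Hif1a in knockdown cells.

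The 3 prolyl hydroxylase genes did not move together. Egln2, whose enzyme is also called PHD1, was higher in knockdown cells. Egln2 (ENSMUSG00000058709, chromosome 7, 27158658 to 27166802, minus strand) stood at 53.1, 37.8 and 35.9 CPM in WT and at 61.7, 58.0 and 61.4 CPM in the knockdown libraries, every one of which was above every WT library. The log2 fold change was 0.52 (SE 0.183, adjusted p = 0.263 in edgeR) over the 6 libraries and 0.70 (SE 0.0622, adjusted p = 3.04e-05) without WT replicate 1. Its transcript had the highest GC content of the 10 genes (62.3%, the others 41.3% to 56.0%). Removing the GC trend left 0.24 over 5 libraries (adjusted p = 0.0134) and 0.03 over 6 (adjusted p = 0.942), below the 0.40 of Kdm3a over 5 libraries in the same fit.

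Egln1, which encodes PHD2, the main sensor of oxygen for HIF-1 alpha in most cells, went the other way. Egln1 (ENSMUSG00000031987, chromosome 8, 124908587 to 124949324, minus strand) stood at 124.5, 84.5 and 78.1 CPM in WT and at 66.2, 64.9 and 62.8 CPM in knockdown libraries. No knockdown library reached a WT library, and the knockdown values were tight (64.6 ± 1.71 CPM, SD, n = 3). On the log2 scale Egln1 differed by -0.57 (SE 0.205, adjusted p = 0.269 in edgeR) over the 6 libraries and -0.35 (SE 0.0549, adjusted p = 8.64e-04) without WT replicate 1. In TPM the order held as well, with 28.8, 36.3 and 33.6 in WT and 28.1, 28.6 and 27.5 in knockdown libraries, although WT replicate 1 exceeded the highest knockdown library by only 0.20 TPM.

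Egln3, which encodes PHD3 and is strongly inducible by HIF in many cells, was the most abundant of the hydroxylase genes. Egln3 (ENSMUSG00000035105, chromosome 12, 54178981 to 54203860, minus strand) stood at 471.2, 369.7 and 376.4 CPM in WT and at 404.3, 348.5 and 342.4 CPM in knockdown libraries. The groups overlapped, with knockdown replicate 1 above 2 of the WT libraries. For Egln3 the log2 difference was -0.15 (SE 0.169, adjusted p = 0.657 in edgeR) over the 6 libraries and -0.05 (SE 0.0643, adjusted p = 0.617) without WT replicate 1. Without knockdown replicate 1 as well, it was at -0.11 and called (adjusted p = 0.0249), and it was at 0.01 without knockdown replicate 3.

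Expressed as shares of the summed TPM of the 3 hydroxylase genes, Egln3 made up 72.3% to 77.1% in every library. The share of Egln2 was 12.4%, 10.9% and 11.1% in WT and 16.0%, 17.2% and 18.0% in knockdown libraries. The share of Egln1 was 14.1%, 12.8% and 11.8% in WT and 8.94%, 9.95% and 9.76% in knockdown libraries. Egln1 exceeded Egln2 in each WT library by this measure, and Egln2 exceeded Egln1 in each knockdown library.

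Vhl, the substrate receptor of the ligase that marks hydroxylated HIF alpha, was lower in every knockdown library than in any WT library. Vhl (ENSMUSG00000033933, chromosome 6, 113623959 to 113631633, plus strand) stood at 61.1, 32.4 and 34.7 CPM in WT and at 22.3, 19.3 and 21.4 CPM in the knockdown libraries. The highest knockdown library was 10.2 CPM below the lowest WT library. The log2 fold change was -1.03 (SE 0.271, adjusted p = 0.182 in edgeR, 0.0157 in DESeq2) over the 6 libraries and -0.70 (SE 0.0845, adjusted p = 1.81e-04) without WT replicate 1. On the log2(TPM + 1) scale the 5-library value was -0.51 and not called (adjusted p = 0.0618), and TPM was 19.4, 18.4 and 20.6 in WT against 14.2, 11.2 and 14.8 in knockdown libraries, still without overlap.

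An earlier look at these same fold changes had picked out the 7-base sequences GAACTAC and AACTACA in 3' UTRs of lower genes, and Vhl is the only 1 of the 10 genes whose annotated 3' UTR holds either. Both occur there as 1 overlapping site, at position 1706 of the 2064 bases of the UTR of transcript ENSMUST00000035673.7. It is shown 5′ to 3′ with GAACTAC in capitals, because Vhl alone of the 10 genes holds it:

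Vhl: caaaatgactGAACTACatcctaacac

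In the transcript sequence, GAACTAC was present in 5.51% and either sequence in 12.3% of 20674 genes with a 3' UTR of at least 50 bases. Of the genes named below, Ero1a, Pdk1, Hif1an, Kdm5b, Flt1 and Pdgfra, all lower without WT replicate 1, also hold either sequence in a 3' UTR. So does Usp20, which was higher, while other lower genes such as Eloc and Optn hold neither. The targeted Acsl5 holds AACTACA without GAACTAC. Holding either sequence is therefore not particular to Vhl. As the sequence came from the fold changes of these libraries, its presence is a description, and its part in the level of Vhl was not tested.

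Kdm3a, which encodes an oxygen-dependent demethylase of histone H3 lysine 9 and is a known HIF target, was higher in knockdown cells. Kdm3a (ENSMUSG00000053470, chromosome 6, 71588972 to 71632990, minus strand) stood at 70.0, 113.3 and 119.6 CPM in WT and at 141.6, 152.1 and 139.7 CPM in knockdown libraries. All knockdown libraries were above all WT libraries, and without WT replicate 1 the means were 116.4 ± 4.49 CPM (SD, n = 2) and 144.4 ± 6.69 CPM (SD, n = 3). On the log2 scale Kdm3a differed by 0.52 (SE 0.225, adjusted p = 0.332 in edgeR) over the 6 libraries and 0.30 (SE 0.0549, adjusted p = 0.00217) without WT replicate 1. On the TPM scale WT replicate 1 was at 12.5, against 50.2 and 52.7 in the other WT libraries, and log2(TPM + 1) gave 0.96 over the 6 libraries and 0.31 without WT replicate 1 (adjusted p = 0.0865).

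The mitophagy receptor genes were both lower. Bnip3 and its paralog Bnip3l, also called Nix, encode proteins of the outer mitochondrial membrane that bind LC3 family proteins and so hand mitochondria to autophagosomes. Bnip3 (ENSMUSG00000078566, chromosome 7, 138890836 to 138909519, minus strand) stood at 184.5, 113.5 and 108.3 CPM in WT and at 67.4, 75.7 and 73.2 CPM in the knockdown libraries. The groups were well apart, with the highest knockdown library 32.6 CPM below the lowest WT library. The log2 fold change was -0.91 (SE 0.237, adjusted p = 0.178 in edgeR, 0.0144 in DESeq2) over the 6 libraries and -0.64 (SE 0.0622, adjusted p = 5.09e-05) without WT replicate 1. By TPM, however, the value of WT replicate 1 (95.0) lay among the knockdown libraries (94.9, 106.9 and 101.1), below WT replicates 2 and 3 (144.3 and 133.1), and log2(TPM + 1) gave -0.27 over the 6 libraries and -0.45 without WT replicate 1 (adjusted p = 0.0201). The annotated genes that overlap Bnip3, the antisense Gm45507 and the pseudogene Gm18258, had 0 counts in the table in every library.

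Bnip3l (ENSMUSG00000022051, chromosome 14, 66985239 to 67008877, minus strand) stood at 193.6, 184.9 and 181.6 CPM in WT and at 154.4, 154.8 and 143.3 CPM in knockdown libraries. In CPM WT replicate 1 was close to the other 2 WT libraries (105.7% of their mean, against 52.5% in TPM), and every knockdown library was below every WT library. Its log2 fold change was -0.31 (SE 0.122, adjusted p = 0.295 in edgeR, 0.0274 in DESeq2) over the 6 libraries and -0.30 (SE 0.0486, adjusted p = 0.00102) without WT replicate 1. Removing the GC trend left -0.16 over 5 libraries (adjusted p = 0.0284).

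Counts and TPM varied unequally between libraries for Bnip3l. Its TPM was 111.6, 210.8 and 214.7 in WT and 103.3, 156.2 and 189.9 in knockdown libraries, so the knockdown libraries differed 1.84-fold in TPM where they differed 1.08-fold in CPM. Dividing counts by TPM, and scaling so that the median gene had its deposited length, gives the transcript length that the TPM table implies. For Bnip3l this was 1609, 1519 and 1466 bases in WT and 2578, 1770 and 1336 bases in knockdown libraries, below the deposited 3238 in every library. The highest was 1.93 times the lowest, a spread larger than that of 92.5% of 10067 genes with at least 100 counts in every library, whose median was 1.18. With log2(TPM + 1) the 5-library value was -0.55 (SE 0.258, adjusted p = 0.201), not called. For Egln1 and Egln3, which have 1 annotated transcript each, the implied length varied by 1.01 and 1.02 times. Bnip3l has 7 annotated transcripts, while Kdm3a with 14, Arnt with 11 and Hif1a with 5 varied less, by 1.37, 1.20 and 1.06 times. Bnip3, also with 5, varied by 1.47 times, at 1802, 1362 and 1411 bases in WT and 1224, 1265 and 1283 bases in knockdown libraries.

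**Figure D2:**
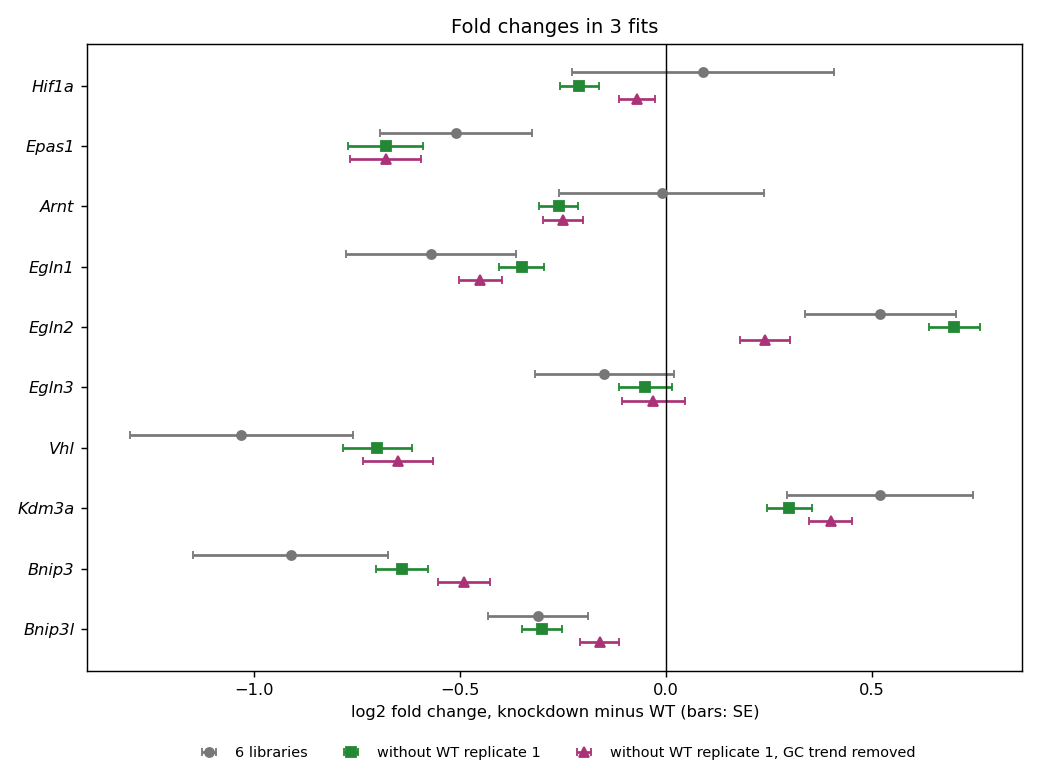
Log2 fold change (knockdown minus WT) of each gene with its SE, over the 6 libraries (grey), without WT replicate 1 (green) and without it and with each library's GC trend removed (purple). The bars shrink without WT replicate 1, Hif1a moves from 0.09 to -0.21, and Egln2 moves from 0.70 to 0.24 when the GC trend is removed.

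**Figure D3:**
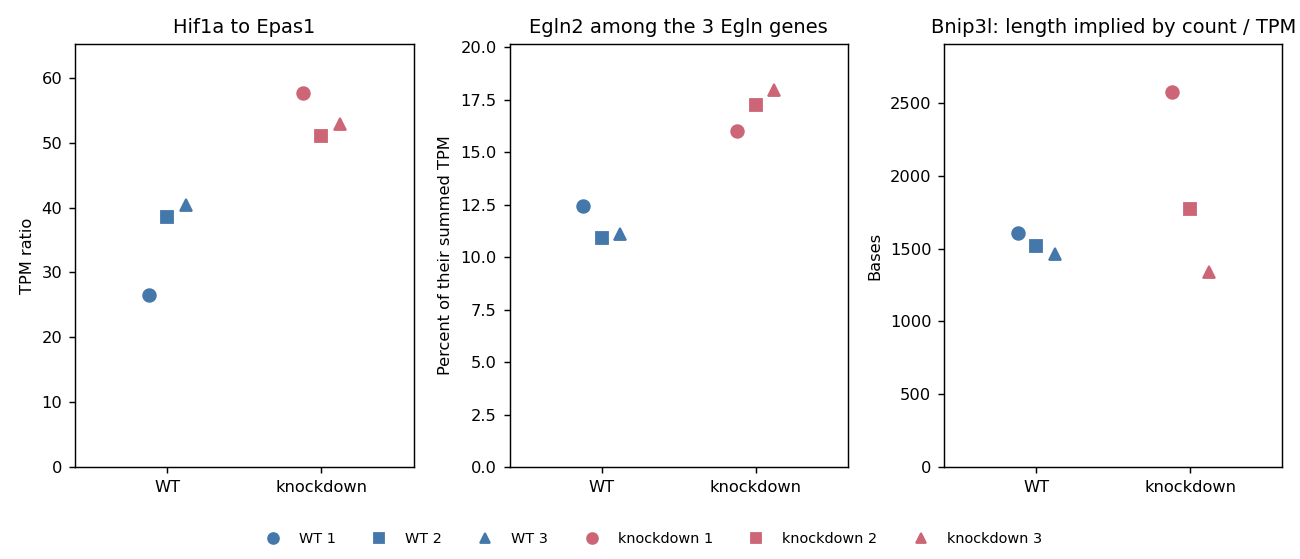
Values formed within each library, by group: TPM of Hif1a over that of Epas1, Egln2 as a percent of the summed TPM of the 3 Egln genes, and the length of Bnip3l implied by its count and TPM (axes from 0). The knockdown libraries lie above all WT libraries in the first pair of panels, and knockdown replicate 1 stands at 2578 bases in the last.

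Promoter sequences were searched because Bnip3, Egln1, Egln3 and Kdm3a are known HIF targets and their differences did not share a direction. RefSeq promoters (GRCm38.p6) were matched for 8 of the 10 genes, and Epas1 and Bnip3l were not matched. The 250 bases before the first listed start were searched on both strands for the cores of the hypoxia response element, ACGTG and GCGTG. At least 1 core was present in 7 of the 8 genes and ACGTG in 5 (Hif1a, Egln1, Egln2, Egln3 and Bnip3), whereas 38.6% of 27025 genes held either and 16.6% held ACGTG. These windows have a high GC content (50.8% to 86.0%), and a match is a description and not a site. Bnip3, lower in knockdown cells, had 5 cores, of which a pair forms the palindrome CACGTG, and Egln3, not called, had 1. Their upstream windows are shown 5′ to 3′ on the strand of the gene, with each core in capitals, to set a window with many cores beside one with a single core:

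Bnip3, chr7:138909507-138909756, minus strand: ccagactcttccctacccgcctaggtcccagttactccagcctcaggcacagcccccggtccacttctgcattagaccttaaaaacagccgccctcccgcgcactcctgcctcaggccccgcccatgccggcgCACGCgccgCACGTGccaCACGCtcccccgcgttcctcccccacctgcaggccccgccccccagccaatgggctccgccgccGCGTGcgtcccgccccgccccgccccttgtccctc
Egln3, chr12:54203875-54204124, minus strand: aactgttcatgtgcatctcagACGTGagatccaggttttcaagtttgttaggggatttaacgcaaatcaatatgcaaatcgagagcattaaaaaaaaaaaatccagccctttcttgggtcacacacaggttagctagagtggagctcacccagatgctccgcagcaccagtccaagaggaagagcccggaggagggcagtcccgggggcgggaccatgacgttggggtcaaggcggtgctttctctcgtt

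For the other genes a core is shown with 8 bases on each side, the ACGTG nearest to the start where there is one. Hif1a, Egln1 and Egln2 held this ACGTG at positions -70, -68 and -48 from the start, and Kdm3a and Arnt held only GCGTG, at -27 and -29. Hif1a held 3 ACGTG in all, of which a pair at -135 and -134 forms CACGTG as in Bnip3, while Egln2 also held 3 GCGTG cores and Egln1 held 1:

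Hif1a: tgagagcaACGTGggctgggg
Egln1: cgtggtgtACGTGcagcgcgc
Egln2: tcctgtcaACGTGcggttcgc
Kdm3a: gaggctgtGCGTGtcttgtga
Arnt: agtttgggGCGTGtcttctgc

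Genes with a core thus included lower genes (Bnip3, Egln1, Hif1a and Arnt), higher genes (Egln2 and Kdm3a) and the uncalled Egln3. Vhl, with no core in its window, was lower.

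Levels can be compared between the genes only per length, by TPM. Over the 5 libraries without WT replicate 1 the order was Hif1a (mean 245.8 TPM, range 224.5 to 267.8), Egln3 (217.2, 203.5 to 236.1), Bnip3l (175.0, 103.3 to 214.7) and Bnip3 (116.0, 94.9 to 144.3). Kdm3a (59.1, 50.2 to 71.9), Egln2 (42.6, 31.0 to 50.6), Arnt (42.4, 37.1 to 45.6), Egln1 (30.8, 27.5 to 36.3), Vhl (15.8, 11.2 to 20.6) and Epas1 (5.30, 4.04 to 6.93) came below. The ranges of neighbours, taken over libraries of both groups, overlapped among the first 4 genes and from Kdm3a to Arnt. Bnip3 over Kdm3a, Arnt over Egln1, Egln1 over Vhl and Vhl over Epas1 held without overlap. Within libraries, Egln3 exceeded Bnip3l, Bnip3l exceeded Bnip3 and Kdm3a exceeded Egln2 in 5 of 5, and Hif1a exceeded Egln3 in 4 of 5. Egln2 exceeded Arnt in 3 of 5, which were the knockdown libraries (50.3, 49.5 and 50.6 against 42.75, 43.3 and 37.1 TPM). In WT replicates 2 and 3 Egln2 was below Arnt (31.0 and 31.7 against 43.3 and 45.6 TPM), while in WT replicate 1 it was above (25.2 against 12.3). In WT replicate 1 the TPM of the 10 genes was between 24.3% (Kdm3a) and 99.6% (Vhl) of the mean of the other WT libraries, and Hif1a was at 66.5 TPM, below Egln3, Bnip3l and Bnip3.

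**Figure D4:**
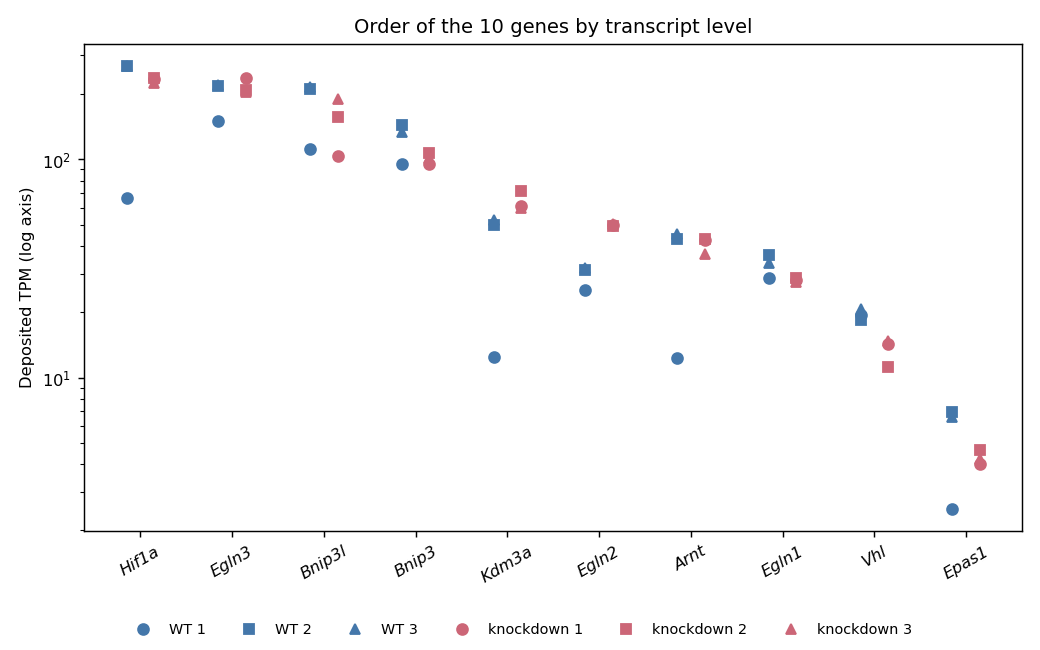
Deposited TPM (log axis) of the 10 genes in each library, in order of the mean over the 5 libraries without WT replicate 1. Hif1a and Egln3 lie highest and Epas1 lowest, with a mean of 5.30 TPM, and WT replicate 1 (blue circle) falls well below the other WT libraries for Hif1a, Kdm3a, Arnt and Epas1.

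Other genes of the pathway were called in both directions without WT replicate 1, in counts to be read against the 34.3% of all tested genes that were called (16.3% higher, 18.0% lower) and their median of -0.01. Of 45 listed HIF targets outside the 10 genes, 43 were tested, 9 were higher, 10 were lower and 24 were not called, with a median log2 fold change of -0.05. After removal of the GC trend 7 were higher and 12 lower, where 31.4% of all genes were called. The endoplasmic reticulum oxidase gene Ero1a fell by 1.16 on the log2 scale (SE 0.0460), from 179.5 and 177.7 CPM in WT replicates 2 and 3 to 82.2, 81.6 and 78.9 CPM. Pdk1, whose kinase restrains entry of pyruvate into the tricarboxylic acid cycle, fell by 0.87 (SE 0.0529). The phosphatase gene Dusp1 rose by 1.27 (SE 0.136), the lipase inhibitor gene Angptl4 by 0.63 (SE 0.0689) and Cited2 by 1.35 (SE 0.258). CITED2 competes with HIF alpha for the coactivators p300 and CBP, and its gene was at 18.7 and 18.5 CPM in WT replicates 2 and 3, 38.4 in WT replicate 1, and 62.8, 39.1 and 42.1 in the knockdown libraries. Genes of glucose handling, named after their values were seen, also split, with the transporter gene Slc2a1 at 0.26 and Ldha and Pgk1 at -0.20 and -0.26, all called. The angiogenic factor gene Vegfa was not called (-0.08, adjusted p = 0.171), but was called once the GC trend was removed (-0.30, adjusted p = 4.71e-04), and it was at 0.07 over the 6 libraries. Over the 6 libraries edgeR called 0 of the 43 targets, with a median of -0.01. There 7 targets had an unadjusted p below 0.05, beside 16.0% of all tested genes. In that fit Ero1a was at -1.10, Pdk1 at -0.82, Dusp1 at 1.17, Angptl4 at 0.39 and Cited2 at 0.93. Slc2a1 was at 0.22, Ldha at -0.51 and Pgk1 at -0.51.

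Of 30 other regulators of HIF, 27 were tested, 5 were higher, 4 lower and 18 not called, near the 34.3% of all genes, with a median of -0.015. After removal of the GC trend 6 were higher and 4 lower. Hif1an, which encodes the asparaginyl hydroxylase FIH that blocks HIF alpha from its coactivators, fell by 0.35 on the log2 scale (SE 0.0557, adjusted p = 8.45e-04 in edgeR), while the coactivator gene Crebbp rose by 0.44 (SE 0.0499). Eloc, the elongin C subunit of the VHL ligase, fell by 0.54 (SE 0.0874), and Usp20, a deubiquitinase that stabilises HIF-1 alpha, rose by 0.42 (SE 0.0725). In WT replicate 1 Eloc stood at 191.1 CPM, against 68.1 and 71.3 in the other WT libraries and 43.2 to 53.4 in knockdown libraries. The highest level in any library was 0.682 CPM for Hif3a and 0.221 CPM for Arnt2, alternative subunit genes.

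Of 28 other mitophagy genes, 27 were tested, 8 were higher, 3 lower and 16 not called, beside 34.3% of all genes called (16.3% higher, 18.0% lower), with a median of 0.08. After removal of the GC trend 6 were higher and 2 lower. Gabarapl1, a member of the LC3 family, rose by 0.63 (SE 0.050), from 67.3 and 65.1 CPM in WT replicates 2 and 3 to 103.6, 103.7 and 104.1 CPM. The autophagy adaptor gene Sqstm1 rose by 0.50 (SE 0.0668) and the receptor gene Fkbp8 by 0.57 (SE 0.0620), although removing the GC trend left Fkbp8 at 0.13 and uncalled (adjusted p = 0.146). The adaptor gene Optn fell by 0.59 (SE 0.0581). Genes of the turnover of BNIP3 and NIX proteins, named after their values were seen, were Pptc7, which rose by 0.415 (SE 0.0671), and Fbxl4, at -0.30 and not called (adjusted p = 0.0945). Pink1, the kinase gene of the other main mitophagy route and likewise named afterwards, fell by 0.45 (SE 0.110).

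Of 20 other JmjC demethylase genes, 19 were tested, 4 were higher, 4 lower and 11 not called, beside the 34.3% of all genes, with a median of -0.07. After removal of the GC trend 3 were higher and 5 lower. Kdm6b rose by 0.52 (SE 0.0801), and Kdm7a, Kdm5b and Jmjd1c, which is a paralog of Kdm3a, fell by 0.43, 0.26 and 0.29. Removing the GC trend left Kdm6b at 0.23, Kdm7a at -0.28, Kdm5b at -0.19 and Jmjd1c at -0.17, all still called. Over the 6 libraries Kdm6b was at 0.92, Kdm7a at -0.12, Kdm5b at -0.03 and Jmjd1c at 0.14, so that Jmjd1c changed sign. Hif1an was at -0.09 there. The other close paralog, Kdm3b, was at 77.6 and 76.8 CPM in WT replicates 2 and 3 and at 70.5, 75.1 and 71.1 CPM in knockdown libraries and was not called (adjusted p = 0.135). Over the 6 libraries edgeR called 0 genes of these 3 lists, with the lowest adjusted p at Gabarapl1 (0.130). There 5 other HIF regulators, 5 other mitophagy genes and 1 other demethylase gene had an unadjusted p below 0.05. Over all tested genes this share was 16.0%, and nothing is read from these counts. The list medians were -0.14, -0.01 and 0.22. Crebbp was at 0.74, Usp20 at 0.57, Eloc at -1.18, Gabarapl1 at 0.78, Sqstm1 at 0.33, Fkbp8 at 0.39 and Optn at -0.43 there.

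**Figure D5:**
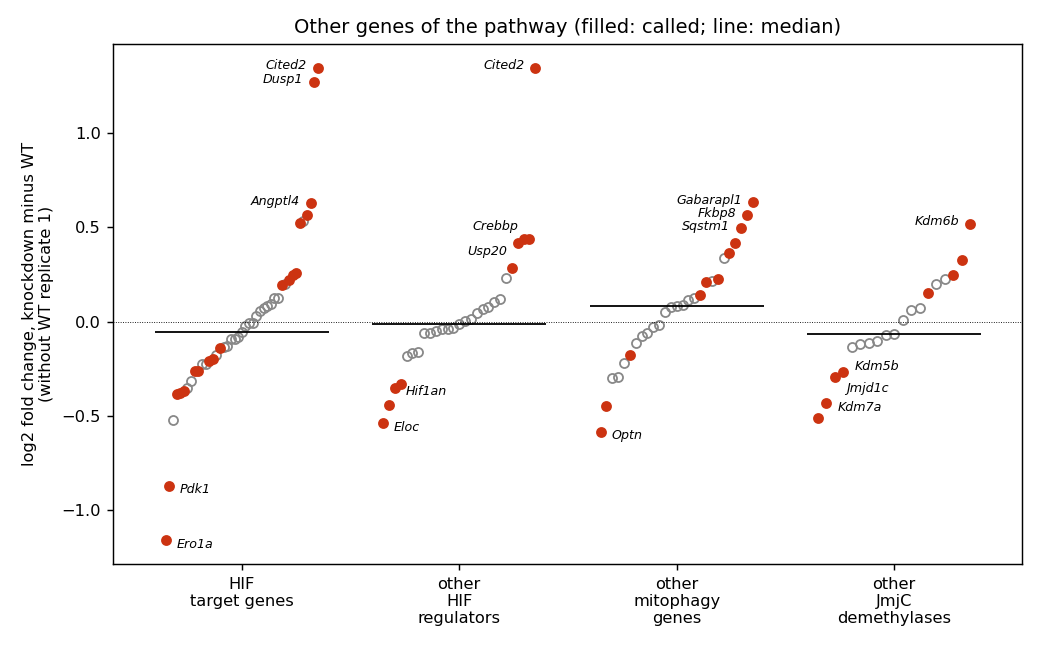
Log2 fold change (knockdown minus WT, without WT replicate 1) of the tested genes of 4 lists, sorted within each list, with a line at the list's median. Filled points passed an adjusted p below 0.05 in edgeR, and each list has filled points on both sides of 0, with Ero1a and Pdk1 lowest and Cited2 and Dusp1 highest among the HIF targets.

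The line carried the markers of its labelled cell type. Of 9 epithelial tumour markers, 8 were at 1 CPM or more, with Krt19, Krt8 and Krt18 the most abundant, and Cldn4 at 0. Their summed level was 7406 to 7587 CPM in knockdown and 7127 to 13400 CPM in WT libraries. Epas1 and Flt1 are also expressed by endothelium, but Cdh5, Tek, Emcn and Erg had 0 counts in all libraries. The 9 endothelial markers summed to 55.8 to 117.9 CPM in WT and 76.0 to 84.6 CPM in knockdown libraries, mostly from Flt1. Of 9 fibroblast markers 4 reached 1 CPM and the sum was 225.4 to 368.5 CPM in WT and 292.2 to 311.6 CPM in knockdown libraries, with Lum and Fap at 0. Of 9 macrophage and leukocyte markers 2 did, Cd14 and Cd68, with sums of 59.1 to 86.8 and 78.7 to 83.8 CPM, and Adgre1, C1qa and Tyrobp at 0. Without WT replicate 1 some of these markers differed in both directions: Krt7 rose by 0.49 on the log2 scale, Cdh1 by 0.42, Muc1 by 0.25, Pdgfrb by 0.73 and Cd14 by 0.44, while Epcam fell by 0.23, Flt1 by 0.59, Pdgfra by 0.62 and Col3a1 by 0.27. Krt18, called at 0.17, was not called with the GC trend removed (0.05, adjusted p = 0.428) and was at -0.38 over the 6 libraries, where Muc1 was at 0.02, Col3a1 at -0.08 and Krt7 at 0.20. Their part in the differences of the 10 genes was not tested. In bulk RNA, fewer cells of a type and less RNA per cell cannot be told apart.

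The genes closest in pattern were sought by the root mean square difference of centred log2 CPM over the 6 libraries, among 10108 genes that averaged 5 CPM or more and carry a symbol that is not a predicted name. For Epas1 they were Reep3 (0.0441 log2 units), Sanbr (0.0491) and Ugt2b34 (0.0564). For Bnip3 they were Acot9 (0.0167), Tead2 (0.0368) and Ap3m1 (0.0494), and for Kdm3a they were Blzf1 (0.0303), Kansl3 (0.0319) and Nr1d1 (0.0413). Acot9, an acyl-CoA thioesterase gene of mitochondria, stood at 90.8, 56.6 and 54.2 CPM in WT and at 33.9, 38.7 and 36.8 CPM in knockdown libraries. WT replicate 1 enters this measure with the same weight as the other libraries.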

How the data were processed

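Gene expression was measured by RNA sequencing in 3 WT and 3 ACSL5 knockdown libraries. Per the submitters' processing notes, the tools were fastp, HISAT2, StringTie and DESeq2, with no role stated, and the builds were human (hg38, GRCh38), although the tables list mouse Ensembl genes. The sources used here do not give the quantifier or its use of strand. The authors deposited expected counts per gene, of which 10.1% to 13.0% per library were not whole, and TPM, which sum to about 1000000 per library. Group means in the deposited tables were not used.

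Counts were rounded, filtered with filterByExpr, scaled by TMM and tested in edgeR 4.0.16 (R 4.3.3) by its robust quasi-likelihood fit, two-sided, with Benjamini-Hochberg adjustment over all genes tested and a threshold of 0.05. The SE is the absolute log2 fold change over the square root of F. All CPM values share the scaling of the 6 libraries. Alternatives used DESeq2 1.42.0, limma 3.58.1 (voom on counts, and its trended fit on log2(TPM + 1) or log2(TPM + 0.1), which understates changes of low genes, where a group mean reached 1 TPM), other scalings and filters, a fit without robust estimation, a threshold of 0.01, a replicate block, the removal of each library's lowess trend (span 0.3) with length or GC content, and leaving out each library. Removing both trends was chosen after seeing the data. GC content was known for 96.3% of genes tested over 5 libraries. The edgeR script was tested on simulated data.

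Genes, lists and the fit without WT replicate 1 were chosen with earlier results of these data known. Named by rule are the 10 genes, the targeted Acsl5 and the 3 genes nearest in pattern to Epas1, Bnip3 and Kdm3a. Each list adds up to 4 called genes with the smallest p over 5 libraries and the called gene furthest against its median. Outside this rule, with values known, stand Slc2a1, Ldha, Pgk1, Vegfa, Hif3a, Arnt2, Pptc7, Fbxl4, Pink1, Kdm3b and some marker genes. Where a symbol had several rows, the row with the most counts was used. Positions, lengths, GC content and 3' UTRs come from GENCODE M21 (GRCm38), in which each of the 10 genes has a transcript of the deposited length. Library depth limits the precision of low genes such as Epas1, with 313 to 747 counts per library.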

Additional observations from a re-analysis of the deposited data

How the results depend on the processing

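Over the 6 libraries the count of 0 called genes became 1 when scaled by library totals, 4 when unfiltered, 9 with limma-voom, 5 without robust estimation, 3 with the GC trend removed, 879 with the length trend removed, 578 with both trends removed and 1127 with DESeq2. It ranged from 0 to 5193 when each library was left out, and only the fit without WT replicate 1 called any gene. Over 5 libraries the count of 5193 became 2464 with log2(TPM + 1), 2544 with log2(TPM + 0.1) and 3217 at a threshold of 0.01, and it ranged from 2599 to 6188 when each library was left out, with the lowest counts without WT replicate 2 (3124) or 3 (2599), fits that lend the single WT library the spread of the knockdown group. The split of 2471 higher and 2722 lower became 1459 and 1005 with log2(TPM + 1) and 1525 and 1019 with log2(TPM + 0.1). Higher genes also outnumbered lower ones with library totals (2864 and 2356), no filter (2921 and 2745) and a filter of 1 CPM (2657 and 2623). The same held with DESeq2 (2480 and 2417), the length trend removed (2729 and 2650) and each knockdown library left out. The direction of the excess thus depended on the processing.

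Of the 10 genes, Epas1, Egln1, Egln2 and Bnip3 kept sign and call in all 18 alternatives of the 5-library fit. Over the 6 libraries, where no gene was called, Epas1, Egln1, Egln2, Vhl, Kdm3a, Bnip3 and Bnip3l kept their sign in all 19. The sign of Hif1a over the 6 libraries turned with the length trend removed (-0.01) and without WT replicate 1 (-0.21), with leave-one-out values from -0.21 to 0.25. That of Arnt turned with library totals (0.06), no filter (0.00204), limma-voom (0.04), log2(TPM + 1) (0.47), log2(TPM + 0.1) (0.50) and the replicate block (0.04), and without WT replicate 2 (0.12), WT replicate 3 (0.12) or knockdown replicate 3 (0.01), with leave-one-out values from -0.26 to 0.12. That of Egln3 turned with log2(TPM + 1) and log2(TPM + 0.1) (0.16 in both), and over 5 libraries without knockdown replicate 3 (0.01), with leave-one-out values from -0.11 to 0.01. The causes were not tested.

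The labels do not say whether the replicate numbers pair the libraries. Deviations of same-numbered libraries from their group means correlated across genes at -0.115, 0.02 and -0.142, and not every library correlated best with its own number. These values cannot decide the question, because WT replicate 1 lies far from WT replicates 2 and 3 and sets the deviations of both. Their correlations with knockdown replicates 1, 2 and 3 were nearly the same (0.108, 0.02 and -0.149 for WT replicate 2, 0.1, 0.023 and -0.142 for WT replicate 3). With the number as a replicate block the counts were 0 over 6 and 5753 over 5 libraries, and among the 10 genes the block changed the call of Egln3 alone (-0.12, adjusted p = 0.0325 in edgeR over 5 libraries).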
